A study of Mus musculus with 12 samples.

Results

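The B cell receptor (BCR) signaling genes are a fixed list of 38 mouse genes that encode the receptor's signaling chains and the kinases, adaptors, phosphatases, exchange factors, lipid kinases, calcium and NFAT proteins and protein kinase C partners that act after it. They were found among the array's noncontrol probes through the RefSeq accession that the scanner files give for each probe, and each gene was read from the probe with the highest mean over the 12 arrays. All 38 were on the array and all 38 passed the filter on dim probes, among 22742 genes tested. The rule that picks the probes uses gene names and signal, not differences between groups. The list itself was chosen with earlier results of these data known, so its counts beside those of all genes are descriptions. The list was matched by 52 probes; 25 genes had 1 probe and 13 had several.

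Total RNA came from purified splenic follicular B cells of male C57BL/6J mice and was measured on 1-colour (Cy3) Agilent arrays. There were 4 groups of 3 arrays: wild-type (WT) cells at 0 h, WT cells after 24 h with 10 µg/mL anti-mouse IgM Fab' in RPMI1640, and Bach2-/- cells at the same times. Bach2 encodes a BTB and basic leucine zipper transcriptional repressor that is abundant in B cells, and the study asked how its loss alters the response to the antigen receptor. The sources used here do not give how the Bach2 allele was made, the animals' age or whether the arrays of a group came from separate animals, so p-values measure the spread between these samples. None of the 12 samples was cultured without anti-IgM, so the stimulus and the time in culture cannot be told apart.

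As background, surface immunoglobulin carries its signal through the CD79A and CD79B chains. When the receptor is cross-linked, SRC-family kinases such as LYN phosphorylate the tails of both chains, SYK docks there, and SYK and BTK activate phospholipase C gamma 2 on the adaptor BLNK. The products release calcium, which drives NFAT, and activate protein kinase C beta, which drives NF-kB through BCL10 and MALT1, while phosphoinositide 3-kinase feeds AKT and BTK. The phosphatases PTPN6 and INPP5D and the ubiquitin ligase CBLB restrain the signal. The arrays report mRNA only, not phosphorylation or protein.

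Every value below is a log2 level relative to the 75th percentile of its array, and a difference of 1 is a 2-fold change. Levels of different genes come from different probes and are not compared. Differences are group means over 3 arrays ± standard error from limma, with Benjamini-Hochberg adjustment over all 22742 genes, and a gene rose, fell or differed only where the adjusted p was under 0.05. The signal at the 75th percentile was between 155.4 and 307.3 on 11 arrays and 87.4 on Bach2-/- 24 h array 2, and between 50.9% and 66.7% of spots were well above background. Bach2 itself read 3.99, 3.40 and 3.69 at 0 h and 3.71, 3.22 and 3.69 at 24 h in WT cells, and 1.33, 0.96 and 1.10 at 0 h and 0.15, -0.85 and 0.064 at 24 h in Bach2-/- cells. Every Bach2-/- array was below every WT array, and the genotypes differed by -2.56 ± 0.30 (adjusted p = 0.00238) before stimulation and by -3.75 ± 0.30 (adjusted p = 5.47e-05) after it. The Y-linked gene Ddx3y was at the floor of the scale on Bach2-/- 0 h array 1 although the labels call all samples male. It was between 0.38 and 1.73 on the other 11. Y-linked Eif2s3y read -6.44 on that array and 1.525 to 3.89 on the others. Uty and Kdm5d were also at the floor there, against -4.2 to -1.608 and -5.696 to -2.594 on the others. Results are therefore also given without Bach2-/- 0 h array 1 and the dim Bach2-/- 24 h array 2. Array 1 of every group lay on one slide and arrays 2 and 3 on another, and same-numbered arrays deviated together, so values with the array number as a block are printed where they change a call. The general B cell marker Ms4a1 was between 5.46 and 9.09 on the 12 arrays. Of 14 T cell markers, 13 were measured, and Cd3e, which marks T cells, averaged 2.88, 2.57, 2.76 and 2.76 in WT cells at 0 h and 24 h and Bach2-/- cells at 0 h and 24 h. The other markers were not all as even. From 0 h to 24 h, 5 of the 13 fell and 1 rose in WT cells (median change, -0.89). In Bach2-/- cells 1 fell and 1 rose (median change, -0.1), and 2 were higher than in WT cells at 24 h.

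After 24 h of anti-IgM more of the receptor pathway's transcripts fell than rose, in both genotypes. In WT cells 10 of the 38 genes fell and 3 rose (background, 20.6% of all genes tested called in either direction), and in Bach2-/- cells 16 fell and 3 rose (background, 13.3%). Genes that fell made up 9.08% and 7.76% of all genes, and genes that rose 11.5% and 5.52%. The 16 include Sos1, which passed the filter on dim probes only through its 0 h groups. With the array-number block, 19 listed genes were called in WT cells (background, 46.9%) and 23 in Bach2-/- cells (background, 33.4%). In all, 21 listed genes changed in 1 genotype or both: 11 in both, each in the same direction, 2 in WT cells and 8 in Bach2-/- cells by this threshold, which is not a test that they differed between genotypes. The median change of the 38 was -0.29 in WT cells, where the median of all genes was 0.040, and -0.54 in Bach2-/- cells, where it was 0.072. The groups at 0 h and 24 h did not overlap for 18 genes in WT cells (38.2% of all genes) and for 21 in Bach2-/- cells (25.1% of all genes). Without the 2 arrays set apart above, 14 listed genes were called in WT cells (background, 25.1%) and 15 in Bach2-/- cells (background, 14%), and Btk, Dapp1, Itpr1 and Prkcb lost their Bach2-/- call. Over all genes the called Bach2-/- changes were 1255 higher and 1764 lower on all arrays, and 1866 higher and 1321 lower without those 2. Quantile scaling called 2 higher and 15 lower in WT cells (background, 24.6%), and normexp background correction 1 higher and 8 lower (background, 13.8%), without Lyn, Fyn, Pik3ap1 and Malt1. With only the compared groups fitted, Pik3ap1, Malt1 and Stim1 lost their WT call and Btk, Dapp1, Itpr1, Nfatc3, Prkcb and Rasgrp3 their Bach2-/- call; with no filter, Lyn, Pik3ap1 and Malt1 in WT cells and Btk and Dapp1 in Bach2-/- cells were lost. For all called genes, 13 of 13 in WT cells and 19 of 19 in Bach2-/- cells, the 0 h and 24 h arrays did not overlap. The pair of arrays on slide 2, which is part of the fit, therefore had to change in the same direction and is no separate check.

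**Figure D1:**
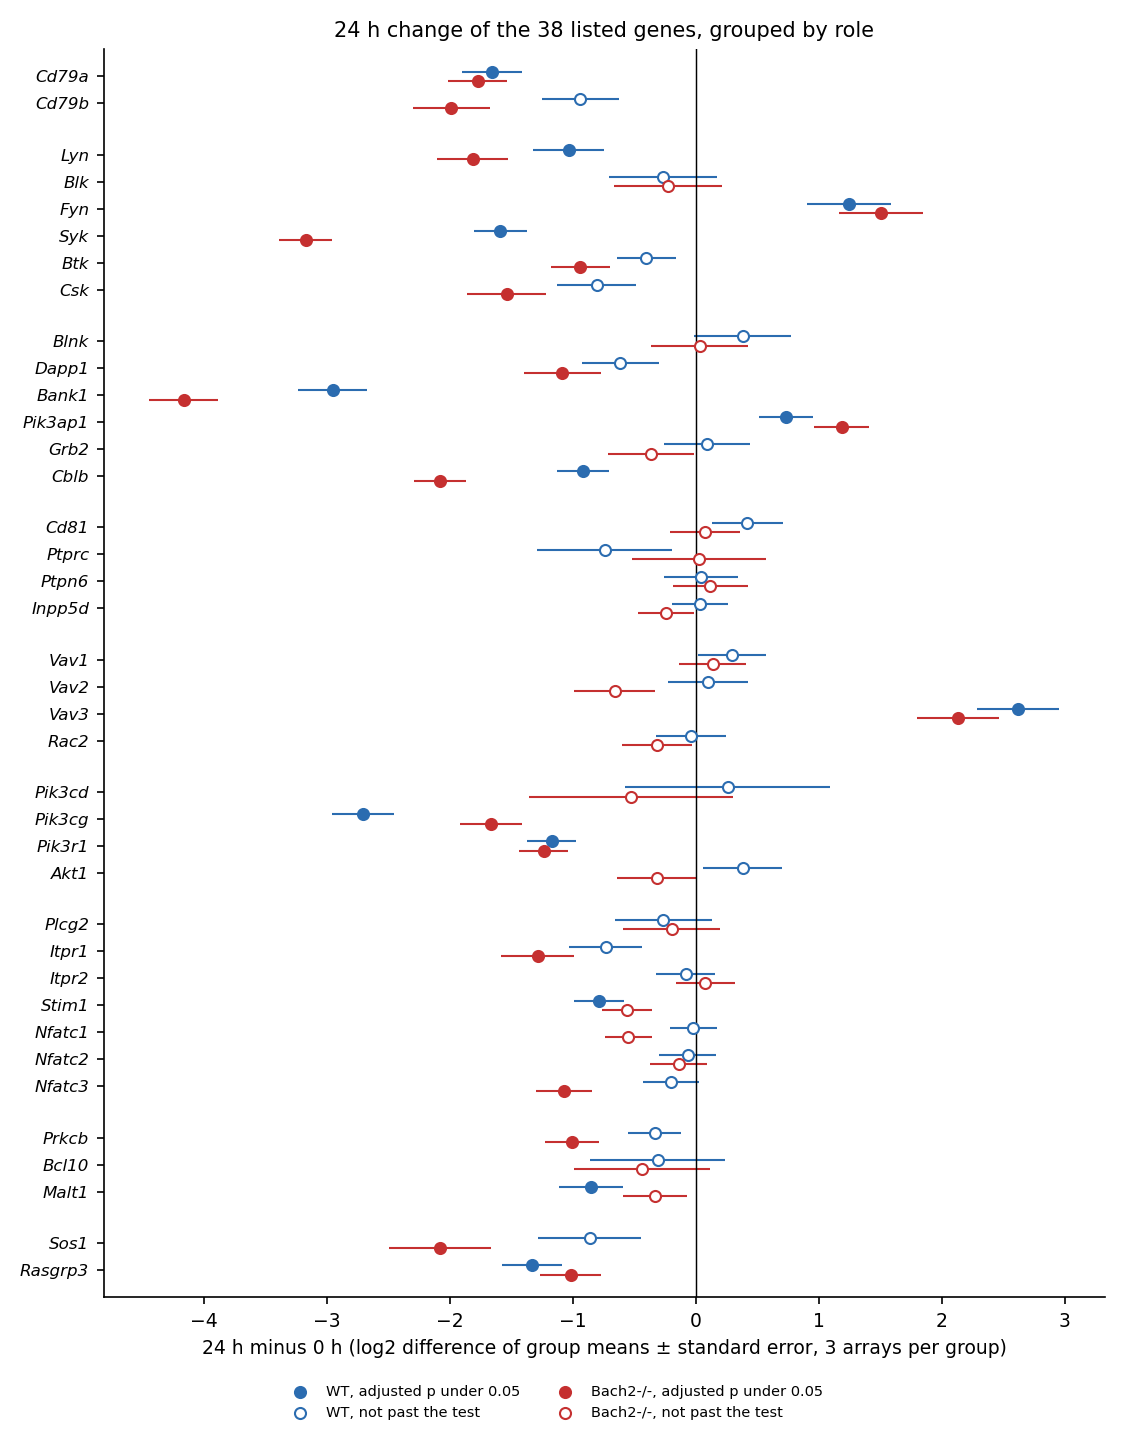
The 24 h change of each of the 38 genes (log2 difference of group means, horizontal axis, with its standard error) in WT cells (blue) and Bach2-/- cells (red), grouped by role; filled points passed the test. Filled points right of 0 are Fyn, Pik3ap1 and Vav3 in both genotypes, and Bank1 lies farthest left, at -2.95 and -4.16.

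The fall went along with a fall of general B cell markers. Of 9 measured markers (of 10 listed), 5 fell in WT cells and 7 in Bach2-/- cells, with medians of -1.01 and -1.77, and none rose; Cd79a, Cd79b and Blk are on both lists. The log2 of their summed level was 10.41 to 10.89 at 0 h and 9.65 to 10.50 at 24 h on WT arrays, and 10.51 to 11.18 and 8.97 to 9.68 on Bach2-/- arrays. The marker Ms4a1 changed by -1.22 ± 0.36 (adjusted p = 0.0315) in WT cells and -2.60 ± 0.36 (adjusted p = 0.000433) in Bach2-/- cells, while Fcmr, the Fc receptor for IgM, gave -0.021 ± 0.30 (adjusted p = 0.976) and -0.31 ± 0.30 (adjusted p = 0.661). In bulk RNA, fewer B cells and less of a transcript per cell cannot be told apart, and the part of these markers in the changes was not tested.

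Of the receptor's signaling chains, Cd79a fell in both genotypes and Cd79b fell in Bach2-/- cells. CD79A and CD79B hold the tyrosine motifs on which SYK docks. Cd79a read 4.61, 4.71 and 4.30 at 0 h and 3.06, 2.85 and 2.74 at 24 h in WT cells, and 4.86, 4.45 and 4.45 at 0 h and 3.04, 2.91 and 2.49 at 24 h in Bach2-/- cells. It fell by 1.66 on the log2 scale (3.15-fold; adjusted p = 0.000738) in WT cells and by 1.77 (3.42-fold; adjusted p = 0.000419) in Bach2-/- cells, and no array at 24 h reached any at 0 h. Cd79b read 9.57, 9.52 and 9.10 at 0 h and 9.03, 8.13 and 8.21 at 24 h in WT cells, and 9.99, 9.44 and 9.35 at 0 h and 7.93, 7.24 and 7.64 at 24 h in Bach2-/- cells. The Bach2-/- arrays at 24 h were all under the WT arrays at 24 h. Its change was -1.99 ± 0.31 (adjusted p = 0.00115) in Bach2-/- cells; in WT cells it was -0.94 ± 0.31 (adjusted p = 0.0563), with an adjusted p of 0.00221 with the array-number block. The genotypes' changes differed by -1.05 ± 0.44 (adjusted p = 0.643).

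Among the kinases, Lyn and Syk fell in both genotypes and Fyn rose in both, while Btk and Csk fell in Bach2-/- cells; Blk did not pass the test. SYK is the kinase that carries the signal from the receptor to its adaptors. Syk read 6.43, 6.67 and 6.59 at 0 h and 5.21, 4.86 and 4.85 at 24 h in WT cells, and 6.63, 6.82 and 6.45 at 0 h and 3.52, 3.31 and 3.54 at 24 h in Bach2-/- cells. At 0 h the genotypes overlapped; at 24 h every Bach2-/- array was more than 1 log2 unit under every WT array. The fall was 3.01-fold in WT cells (-1.59 ± 0.21, adjusted p = 0.000452) and 9.02-fold in Bach2-/- cells (-3.17 ± 0.21, adjusted p = 2.66e-06). LYN starts the phosphorylation of the chains and also acts in inhibitory feedback. Lyn read 2.31, 1.98 and 2.26 at 0 h and 1.495, 0.69 and 1.26 at 24 h in WT cells, and 2.35, 1.86 and 2.19 at 0 h and 0.56, -0.14 and 0.54 at 24 h in Bach2-/- cells, and its 24 h arrays lay under the 0 h arrays in each genotype. The change was -1.03 ± 0.29 (adjusted p = 0.0261) in WT cells and -1.81 ± 0.29 (adjusted p = 0.00122) in Bach2-/- cells. FYN is another SRC-family kinase. Fyn read 0.14, -0.59 and -0.45 at 0 h and 1.31, 1.07 and 0.46 at 24 h in WT cells, and 0.49, -0.26 and -0.021 at 0 h and 2.12, 1.43 and 1.19 at 24 h in Bach2-/- cells. Its 24 h arrays were above all 0 h arrays of the same genotype, a rise of 1.25 ± 0.34 (adjusted p = 0.0241) in WT cells and 1.51 ± 0.34 (adjusted p = 0.0118) in Bach2-/- cells. FYN is abundant in T cells too. Of 13 measured T cell markers, Lck alone rose in each genotype, while 5 fell in WT cells and 1 in Bach2-/- cells. The log2 of the 13 markers' summed level was 7.10 to 7.32 at 0 h and 6.66 to 7.39 at 24 h in WT cells. In Bach2-/- cells it was 7.12 to 7.40 and 6.51 to 6.80. The part of T cells in the Fyn change was not tested.

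BTK, the Tec-family kinase that phosphorylates phospholipase C gamma 2, had a smaller change. Btk read 5.13, 5.07 and 4.98 at 0 h and 4.92, 4.50 and 4.57 at 24 h in WT cells, and 5.35, 4.85 and 4.83 at 0 h and 4.34, 3.86 and 4.03 at 24 h in Bach2-/- cells, and the 24 h values of Bach2-/- cells were the lowest. It changed by -0.94 ± 0.24 (adjusted p = 0.0223) in Bach2-/- cells and -0.40 ± 0.24 (adjusted p = 0.29) in WT cells, where the array-number block gave an adjusted p of 0.0363. CSK holds the SRC-family kinases inactive. Csk read 2.67, 3.53 and 3.49 at 0 h and 2.30, 2.27 and 2.69 at 24 h in WT cells, and 2.97, 3.24 and 3.57 at 0 h and 1.30, 1.65 and 2.23 at 24 h in Bach2-/- cells, so the Bach2-/- groups were separate and the WT groups overlapped. Its change was -1.53 ± 0.32 (adjusted p = 0.00735) in Bach2-/- cells and -0.80 ± 0.32 (adjusted p = 0.105) in WT cells, with an adjusted p of 0.00424 there with the block. Blk, a B cell SRC-family kinase, gave -0.26 ± 0.44 (adjusted p = 0.76) and -0.22 ± 0.44 (adjusted p = 0.877), with SDs of 0.37 to 0.68 within groups. Calls lost on leaving out 1 array were Lyn in WT cells without WT 0 h arrays 1 or 3 or WT 24 h arrays 2 or 3 (adjusted p 0.0555 to 0.0986), Fyn in WT cells without WT 0 h arrays 2 or 3 or WT 24 h arrays 1 or 2 (adjusted p 0.0709 to 0.0897), Fyn in Bach2-/- cells without Bach2-/- 0 h array 2 (adjusted p = 0.0571) and Btk in Bach2-/- cells without Bach2-/- 0 h array 1 or Bach2-/- 24 h arrays 2 or 3 (adjusted p 0.055 to 0.0873).

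**Figure D2:**
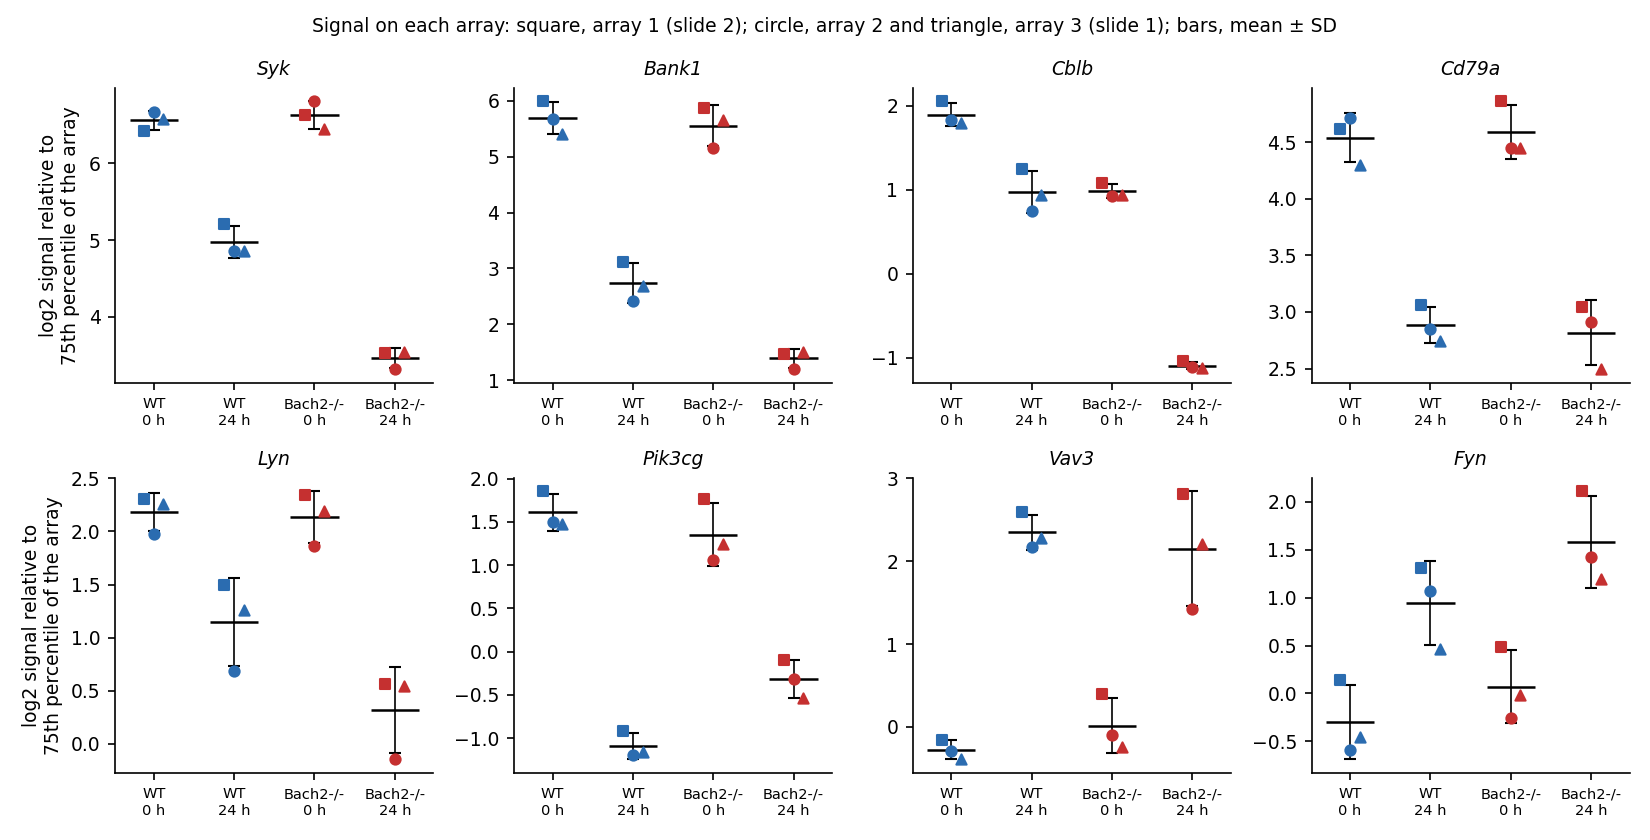
Level of 8 listed genes on each array (vertical axis, log2 signal relative to the array's 75th percentile; axes differ between panels and do not start at 0) in the 4 groups, with group means and SD. Syk, Bank1 and Cblb are lowest in Bach2-/- cells at 24 h, Pik3cg is lowest in WT cells at 24 h, and Vav3 and Fyn are higher at 24 h in both genotypes.

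The adaptors split: Bank1 had the largest fall of the 38 genes in each genotype, and Cblb also fell in both. Dapp1 fell in Bach2-/- cells, Pik3ap1 rose in both genotypes, and Blnk and Grb2 did not pass the test. BANK1 is a B cell scaffold that binds LYN and the inositol trisphosphate receptor. Bank1 read 6.00, 5.67 and 5.41 at 0 h and 3.12, 2.41 and 2.69 at 24 h in WT cells, and 5.86, 5.15 and 5.65 at 0 h and 1.46, 1.196 and 1.51 at 24 h in Bach2-/- cells. The 24 h arrays were more than 2 log2 units under the 0 h arrays in WT cells and more than 3 in Bach2-/- cells, a 7.74-fold fall (-2.95 ± 0.28, adjusted p = 4.23e-05) and a 17.9-fold fall (-4.16 ± 0.28, adjusted p = 2.5e-06). Its other probe gave -2.77 ± 0.24 (adjusted p = 2.62e-05) and -4.39 ± 0.24 (adjusted p = 7.68e-07) in a fit of single probes. CBLB is a ubiquitin ligase that limits antigen receptor signaling. Cblb read 2.06, 1.83 and 1.80 at 0 h and 1.24, 0.75 and 0.94 at 24 h in WT cells, and 1.08, 0.93 and 0.94 at 0 h and -1.04, -1.11 and -1.13 at 24 h in Bach2-/- cells, so that its WT 24 h arrays spanned the level of the Bach2-/- 0 h arrays. It fell by 0.92 (adjusted p = 0.00997) in WT cells and by 2.08 (adjusted p = 5.09e-05) in Bach2-/- cells. A dimmer second Cblb probe gave -1.06 ± 0.27 (adjusted p = 0.0157) and -0.72 ± 0.27 (adjusted p = 0.11) in the fit of single probes, so the 2 probes disagree on the change in Bach2-/- cells.

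PIK3AP1 (BCAP) links the receptor to phosphoinositide 3-kinase. Pik3ap1 read 0.39, 0.50 and 0.67 at 0 h and 1.26, 1.40 and 1.09 at 24 h in WT cells, and 0.57, 0.59 and 0.34 at 0 h and 1.72, 1.93 and 1.41 at 24 h in Bach2-/- cells. Each genotype's 24 h arrays were above its 0 h arrays, by 0.73 ± 0.22 (adjusted p = 0.036) in WT cells and 1.19 ± 0.22 (adjusted p = 0.00343) in Bach2-/- cells. DAPP1 (Bam32) is an adaptor that binds phosphoinositide 3-kinase products. Dapp1 read 3.86, 3.50 and 3.37 at 0 h and 3.54, 2.63 and 2.72 at 24 h in WT cells, and 4.47, 3.81 and 3.96 at 0 h and 3.35, 2.69 and 2.95 at 24 h in Bach2-/- cells, and only the Bach2-/- groups were separate. It changed by -1.08 ± 0.31 (adjusted p = 0.0399) in Bach2-/- cells and -0.61 ± 0.31 (adjusted p = 0.205) in WT cells, the latter passing with the block (adjusted p = 0.00615); its dimmer probe gave -1.63 ± 0.44 (adjusted p = 0.0227) in WT cells in the fit of single probes. Blnk, the adaptor that assembles BTK and phospholipase C, gave 0.38 ± 0.39 (adjusted p = 0.581) and 0.033 ± 0.39 (adjusted p = 0.984). Grb2, which brings SOS1 to the membrane, gave 0.10 ± 0.35 (adjusted p = 0.901) and -0.36 ± 0.35 (adjusted p = 0.656). The Pik3ap1 call in WT cells was lost on slide 1 alone (adjusted p = 0.0866), with quantile scaling (adjusted p = 0.0528) and without WT 0 h arrays 1, 2 or 3, WT 24 h arrays 1, 2 or 3 or Bach2-/- 0 h arrays 2 or 3 (adjusted p 0.055 to 0.111); the Dapp1 call in Bach2-/- cells was lost without WT 0 h arrays 2 or 3, WT 24 h array 3, Bach2-/- 0 h arrays 1, 2 or 3 or Bach2-/- 24 h arrays 2 or 3 (adjusted p 0.0557 to 0.137).

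None of the 4 genes of the co-receptor and phosphatase group passed the test at 24 h in either genotype. Cd81, a tetraspanin of the B cell co-receptor complex, changed by 0.42 ± 0.29 (adjusted p = 0.366) in WT cells and 0.078 ± 0.29 (adjusted p = 0.945) in Bach2-/- cells. Ptpn6 (SHP-1), the tyrosine phosphatase of inhibitory receptors, gave 0.044 ± 0.30 (adjusted p = 0.949) and 0.12 ± 0.30 (adjusted p = 0.908). Inpp5d (SHIP-1), the lipid phosphatase that removes the product of phosphoinositide 3-kinase, gave 0.033 ± 0.23 (adjusted p = 0.949) and -0.24 ± 0.23 (adjusted p = 0.66). Ptprc (CD45), which activates SRC-family kinases, gave -0.74 ± 0.55 (adjusted p = 0.41) and 0.028 ± 0.55 (adjusted p = 0.99), with SDs of 0.57 to 0.94 within groups; with the array-number block the WT value passed (adjusted p = 0.00454).

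Of the VAV exchange factors and RAC2, Vav3 had the largest rise of the 38 genes. VAV proteins activate RAC GTPases behind the receptor. Vav3 read -0.15, -0.29 and -0.39 at 0 h and 2.59, 2.17 and 2.28 at 24 h in WT cells, and 0.39, -0.10 and -0.24 at 0 h and 2.82, 1.43 and 2.21 at 24 h in Bach2-/- cells. No 0 h array reached any 24 h array, and the rise was 6.16-fold in WT cells (2.62 ± 0.33, adjusted p = 0.000301) and 4.39-fold in Bach2-/- cells (2.13 ± 0.33, adjusted p = 0.00105). Vav1 gave 0.29 ± 0.27 (adjusted p = 0.531) and 0.14 ± 0.27 (adjusted p = 0.877), and its other probe had the same sign in WT cells and the opposite one in Bach2-/- cells. Vav2 gave 0.10 ± 0.33 (adjusted p = 0.889) and -0.66 ± 0.33 (adjusted p = 0.261), the latter with an adjusted p of 0.00797 with the array-number block. Rac2, the RAC GTPase of blood cells, gave -0.035 ± 0.28 (adjusted p = 0.956) and -0.32 ± 0.28 (adjusted p = 0.625). For these 3 genes the 0 h and 24 h arrays overlapped in each genotype.

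In the phosphoinositide 3-kinase group, Pik3cg and Pik3r1 fell in both genotypes and Pik3cd and Akt1 did not pass the test. PIK3CG is the catalytic subunit p110 gamma, best known downstream of G protein-coupled receptors. Pik3cg read 1.86, 1.496 and 1.48 at 0 h and -0.92, -1.200 and -1.16 at 24 h in WT cells, and 1.76, 1.05 and 1.24 at 0 h and -0.094, -0.31 and -0.54 at 24 h in Bach2-/- cells. It fell 6.52-fold in WT cells (-2.71 ± 0.25, adjusted p = 4.08e-05) and 3.17-fold in Bach2-/- cells (-1.67 ± 0.25, adjusted p = 0.000848), and at 24 h the Bach2-/- arrays were all above the WT arrays. Its second probe gave -2.63 ± 0.31 (adjusted p = 0.000179) and -1.99 ± 0.31 (adjusted p = 0.000988) in the fit of single probes. PIK3R1 supplies the regulatory subunits of the receptor-linked enzyme. Pik3r1 read 1.19, 1.19 and 1.199 at 0 h and 0.16, -0.17 and 0.087 at 24 h in WT cells, and 1.44, 1.36 and 1.28 at 0 h and 0.15, 0.24 and -0.004 at 24 h in Bach2-/- cells. Its falls, -1.17 ± 0.20 (adjusted p = 0.00187) and -1.24 ± 0.20 (adjusted p = 0.00131), differed by -0.065 ± 0.28 (adjusted p = 0.983). Pik3cd, the p110 delta subunit that BCR signaling mainly uses, gave 0.26 ± 0.83 (adjusted p = 0.885) and -0.53 ± 0.83 (adjusted p = 0.833). This probe had SDs of 1.01 to 1.35 within groups, and its standard errors were the largest of the 38 genes. With the array-number block its Bach2-/- change passed (adjusted p = 0.0452). In the fit of single probes, the other Pik3cd probes gave 0.27 ± 0.46 and 0.37 ± 0.40 in WT cells. In Bach2-/- cells they gave -0.52 ± 0.46 and -0.62 ± 0.40, and none of these passed. Akt1, the kinase that reads the lipid product, gave 0.38 ± 0.32 (adjusted p = 0.48) and -0.32 ± 0.32 (adjusted p = 0.683).

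Of the 7 genes of the phospholipase, calcium and NFAT group, Itpr1 and Nfatc3 fell in Bach2-/- cells and Stim1 fell in WT cells. ITPR1 is an inositol trisphosphate receptor that releases calcium from the endoplasmic reticulum. Itpr1 read 3.90, 3.59 and 3.60 at 0 h and 3.31, 2.76 and 2.83 at 24 h in WT cells, and 3.996, 3.53 and 3.33 at 0 h and 2.83, 1.88 and 2.29 at 24 h in Bach2-/- cells; the 24 h arrays were under the 0 h arrays in both genotypes. It changed by -1.28 ± 0.30 (adjusted p = 0.013) in Bach2-/- cells and -0.73 ± 0.30 (adjusted p = 0.109) in WT cells, where the array-number block gave an adjusted p of 0.00367. STIM1 senses the emptied store and opens ORAI channels. Stim1 read 3.90, 4.004 and 3.72 at 0 h and 3.05, 3.22 and 2.99 at 24 h in WT cells, and 3.99, 3.92 and 3.87 at 0 h and 3.54, 3.22 and 3.35 at 24 h in Bach2-/- cells. Both genotypes' groups were separate, with changes of -0.79 ± 0.20 (adjusted p = 0.0176) in WT cells and -0.56 ± 0.20 (adjusted p = 0.105) in Bach2-/- cells, the latter passing with the array-number block (adjusted p = 0.0118). NFATC3 is one of the calcium-activated NFAT transcription factors. Nfatc3 read 2.15, 2.68 and 2.58 at 0 h and 2.15, 2.42 and 2.23 at 24 h in WT cells, and 2.47, 2.82 and 2.61 at 0 h and 1.46, 1.497 and 1.74 at 24 h in Bach2-/- cells, and the Bach2-/- 24 h arrays were under all others. It changed by -1.07 ± 0.23 (adjusted p = 0.00781) in Bach2-/- cells and -0.20 ± 0.23 (adjusted p = 0.624) in WT cells. A dimmer second Nfatc3 probe did not pass in either, at -0.67 ± 0.29 (adjusted p = 0.178) and -0.58 ± 0.29 (adjusted p = 0.191) in the fit of single probes, and its changes differed by -0.089 against -0.87 for the probe used. The Stim1 call was lost without WT 0 h array 2 or WT 24 h array 3 (adjusted p 0.0646 to 0.0653), and the Itpr1 call without Bach2-/- 0 h array 1 (adjusted p = 0.054).

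The phospholipase itself, Plcg2, gave -0.26 ± 0.39 (adjusted p = 0.726) in WT cells and -0.20 ± 0.39 (adjusted p = 0.88) in Bach2-/- cells. Itpr2, another inositol trisphosphate receptor, gave -0.082 ± 0.24 (adjusted p = 0.875) and 0.080 ± 0.24 (adjusted p = 0.928), and Nfatc2 gave -0.064 ± 0.23 (adjusted p = 0.9) and -0.14 ± 0.23 (adjusted p = 0.849). For Nfatc1, the NFAT gene whose shorter transcripts antigen receptors induce, the 2 probes disagreed. The brighter one, which the rule selects, gave -0.020 ± 0.19 (adjusted p = 0.962) in WT cells and -0.55 ± 0.19 (adjusted p = 0.0939) in Bach2-/- cells, which passed with the block (adjusted p = 0.00745). The other read 2.86, 2.46 and 2.64 at 0 h and 4.46, 4.07 and 4.23 at 24 h in WT cells, and 3.104, 3.03 and 2.92 at 0 h and 4.06, 3.86 and 4.16 at 24 h in Bach2-/- cells. Its 24 h arrays were above all 0 h arrays of the same genotype, with rises of 1.60 ± 0.22 (adjusted p = 0.000461) and 1.01 ± 0.22 (adjusted p = 0.00825) in the fit of single probes. Which transcripts each probe detects was not analysed here.

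**Figure D3:**
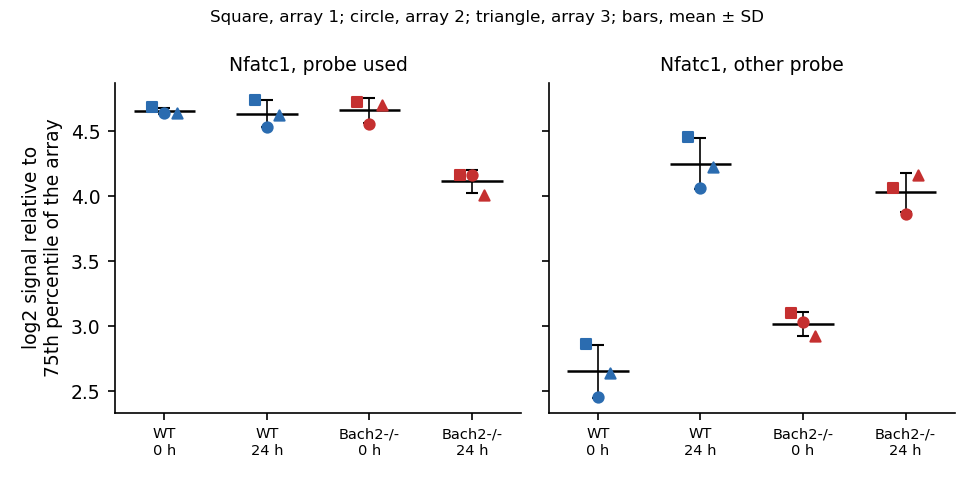
Level of the 2 Nfatc1 probes on each array (vertical axis, log2 signal relative to the array's 75th percentile, not starting at 0) in the 4 groups, with group means and SD. The probe used for the gene changes by -0.020 in WT cells, and the other probe is higher at 24 h in both genotypes.

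Prkcb and Malt1 were called in 1 genotype each. PRKCB is the protein kinase C isoform that links the receptor to NF-kB. Prkcb read 6.59, 6.51 and 6.57 at 0 h and 6.48, 5.95 and 6.25 at 24 h in WT cells, and 6.62, 6.28 and 6.47 at 0 h and 5.46, 5.32 and 5.57 at 24 h in Bach2-/- cells. It changed by -1.01 ± 0.22 (adjusted p = 0.00869) in Bach2-/- cells and -0.33 ± 0.22 (adjusted p = 0.34) in WT cells; its 24 h arrays were under its 0 h arrays in both. A second probe gave -0.82 ± 0.26 (adjusted p = 0.0634) in Bach2-/- cells in the fit of single probes. MALT1 is a scaffold and protease of the complex with BCL10. Malt1 read 4.36, 4.16 and 4.31 at 0 h and 3.43, 3.63 and 3.22 at 24 h in WT cells, and 4.39, 4.17 and 4.45 at 0 h and 4.51, 3.58 and 3.93 at 24 h in Bach2-/- cells, and the Bach2-/- groups overlapped. The change was -0.85 ± 0.26 (adjusted p = 0.0387) in WT cells and -0.33 ± 0.26 (adjusted p = 0.549) in Bach2-/- cells. The WT call was lost without WT 0 h arrays 1, 2 or 3, WT 24 h arrays 1, 2 or 3, Bach2-/- 0 h arrays 2 or 3 or Bach2-/- 24 h array 3 (adjusted p 0.0545 to 0.127). Bcl10 gave -0.31 ± 0.55 (adjusted p = 0.777) and -0.43 ± 0.55 (adjusted p = 0.771). Its SDs within groups were 0.62 to 0.93.

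Of the RAS exchange factors, Rasgrp3 fell in both genotypes and Sos1 fell in Bach2-/- cells. RASGRP3 is recruited by diacylglycerol in B cells and activates RAS. Rasgrp3 read 3.77, 4.06 and 4.31 at 0 h and 2.34, 2.83 and 2.97 at 24 h in WT cells, and 4.58, 4.54 and 4.75 at 0 h and 3.39, 3.68 and 3.75 at 24 h in Bach2-/- cells. Its 24 h arrays were under its 0 h arrays in each genotype, with changes of -1.33 ± 0.25 (adjusted p = 0.0031) in WT cells and -1.02 ± 0.25 (adjusted p = 0.0169) in Bach2-/- cells, and the latter call was lost with quantile scaling (adjusted p = 0.0537) and without Bach2-/- 0 h array 3 or Bach2-/- 24 h array 1 (adjusted p 0.0576 to 0.076). SOS1 is recruited through GRB2. Sos1 was dim, at -3.23, -3.58 and -3.58 at 0 h and -3.68, -5.33 and -3.96 at 24 h in WT cells, and -3.93, -3.34 and -3.66 at 0 h and -5.36, -5.46 and -6.34 at 24 h in Bach2-/- cells. At 24 h the signal stood well above background on 2 of 3 arrays in WT cells and on 0 of 3 in Bach2-/- cells, so its Bach2-/- change (adjusted p = 0.00561) has only a bound, at least 1.47-fold lower, taken from the lowest signal well above background on each array. That call was lost with normexp background correction (adjusted p = 0.981) and with the higher floor (adjusted p = 1). In WT cells the change was -0.86 ± 0.42 (adjusted p = 0.183). Sos1 passed the filter on dim probes only through its 0 h groups. The filter thus favoured a fall, and the Sos1 call is no support for one.

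The genotypes were then compared at each time. At 0 h, limma called 0 of the 38 genes (background, 0.629% of all genes called), with 4 at an unadjusted p under 0.05 (6.12% of all genes), and the median difference was 0.041 (all genes, 0.032). Without the 2 arrays set apart above the count was 0 as well (background, 0.457%). The largest differences were Cd81 at 0.99 ± 0.29 (adjusted p = 0.271), Cblb at -0.91 ± 0.21 (adjusted p = 0.105) and Nfatc2 at -0.73 ± 0.23 (adjusted p = 0.369). Cd81 read 6.24, 6.11 and 6.03 at 0 h and 6.99, 6.23 and 6.43 at 24 h in WT cells, and 7.496, 6.83 and 7.02 at 0 h and 7.47, 6.77 and 7.34 at 24 h in Bach2-/- cells, and Nfatc2 read 3.63, 3.56 and 3.66 at 0 h and 3.71, 3.34 and 3.62 at 24 h in WT cells, and 2.84, 2.81 and 3.01 at 0 h and 3.02, 2.35 and 2.90 at 24 h in Bach2-/- cells. For these 3 genes the groups did not overlap at 0 h, as was so for 6 of the 38 genes and 12.1% of all genes. With the array-number block the same 3 genes passed, with adjusted p of 0.0102, 0.00468 and 0.0294 (background with the block, 3.63%; 2.73% higher and 0.901% lower).

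At 24 h, Syk, Bank1 and Cblb were lower in Bach2-/- cells and no listed gene was higher (3 of 38; background, 3.01% called in either direction and 0.835% lower). Syk differed by -1.51 ± 0.21 (adjusted p = 0.00234), 2.85-fold lower. Bank1 differed by -1.35 ± 0.28 (adjusted p = 0.0234), 2.55-fold lower. Cblb differed by -2.07 ± 0.21 (adjusted p = 0.000259), 4.2-fold lower, although its dimmer probe gave -0.44 ± 0.27 (adjusted p = 0.572) in the fit of single probes. The second Bank1 probe gave -1.64 ± 0.24 (adjusted p = 0.00295). On slide 1 alone the differences were -1.43 for Syk, -1.197 for Bank1 and -1.96 for Cblb, and on the single pair of slide 2 they were -1.69, -1.65 and -2.29. The genotypes' 24 h arrays did not overlap for these 3 genes. Both slides therefore had to give differences below 0 and are no separate check. The Bank1 call was lost without both arrays set apart above (adjusted p = 0.0697), with normexp background correction (adjusted p = 0.0976), with only the compared groups fitted (adjusted p = 0.127) and without WT 24 h arrays 1 or 3 or Bach2-/- 24 h arrays 1, 2 or 3 (adjusted p 0.0511 to 0.0886). The Syk call was lost with only the compared groups fitted (adjusted p = 0.0597).

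Of the 38 differences at 24 h, 25 were below 0, with a median of -0.17 (all genes, -0.053). Without the 2 arrays set apart above, 2 genes were called (background, 2.45%), 20 differences were below 0 and the median was -0.037 (all genes, -0.077). In the whole fit 16 had an unadjusted p under 0.05 (12.5% of all genes), and the groups did not overlap for 16 (15.4% of all genes). With the array-number block 19 of 38 were called, 4 higher and 15 lower (background with the block, 18.6%; 7.95% higher and 10.6% lower). The 4 higher were Rasgrp3, 0.89 ± 0.14 (adjusted p = 0.00334), Pik3cg, 0.78 ± 0.14 (adjusted p = 0.0063), Cd81, 0.65 ± 0.17 (adjusted p = 0.026), and Fyn, 0.63 ± 0.17 (adjusted p = 0.0341). The lower ones besides Syk, Bank1 and Cblb included Cd79b, -0.85 ± 0.18 (adjusted p = 0.0138), Lyn, -0.83 ± 0.14 (adjusted p = 0.00462), and Prkcb, -0.78 ± 0.14 (adjusted p = 0.00561). The other 9 lower genes had adjusted p of 0.00612 for Vav2, 0.00788 for Nfatc2, 0.00945 for Pik3cd, 0.0115 for Nfatc3, 0.0194 for Btk, 0.0214 for Nfatc1, 0.0242 for Itpr1, 0.0262 for Csk and 0.0363 for Sos1. Sos1 was well above background on 0 of 3 Bach2-/- arrays at 24 h, passed the filter only through its 0 h groups and has no bound here. In the fit of single probes, a dimmer Nfatc2 probe gave -0.076 ± 0.39 (adjusted p = 0.967). Other probes of Btk, Prkcb, Nfatc1 and Nfatc3 gave -0.73, -0.50, -0.22 and -0.26, and those of Pik3cd -0.98 and -1.11, none passing. Blocking by slide also called 19 (background, 15.3%), and slide 1 alone called 3 (background, 3.77%). Quantile scaling called 1 higher, Cd81, and 3 lower (background, 3.88%). The mean of a gene's probes called 4 lower (background, 3.21%), adding Pik3cd at -0.998 (adjusted p = 0.025).

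**Figure D4:**
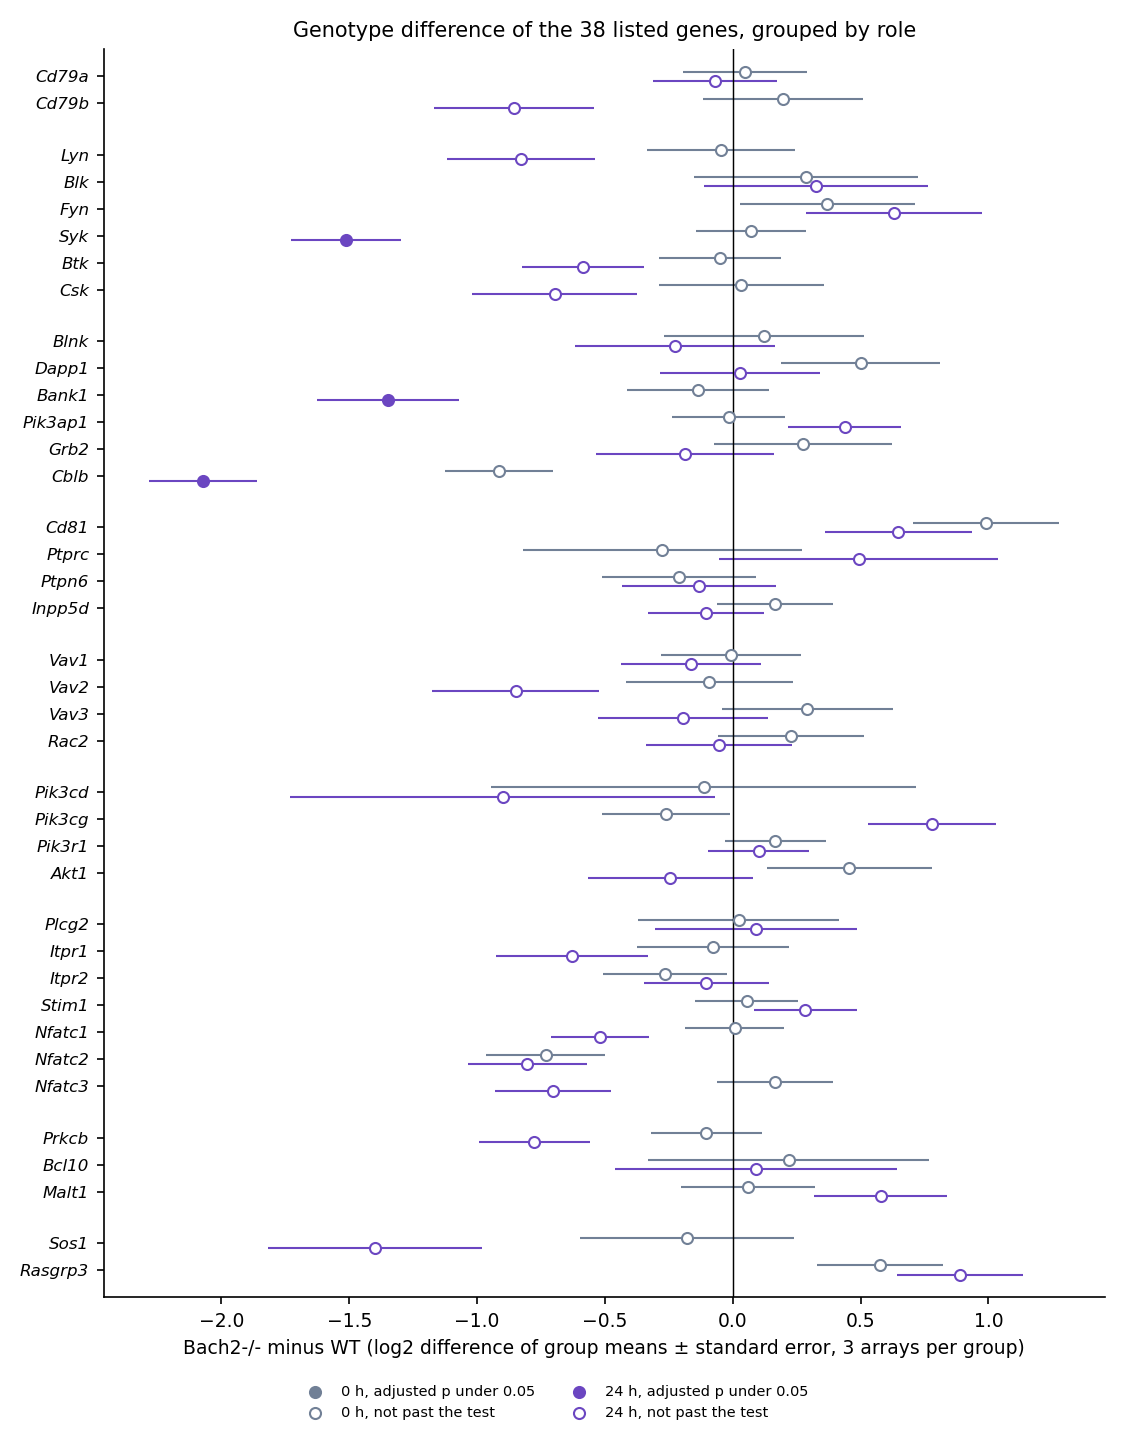
Difference between Bach2-/- and WT cells for each of the 38 genes (log2 difference of group means, horizontal axis, with its standard error) at 0 h (grey) and 24 h (purple), grouped by role; filled points passed the test. No grey point is filled, and the filled purple points are Syk, Bank1 and Cblb, all left of 0.

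Markers of other cells also differed between the genotypes at 24 h. Of 5 measured erythroid and platelet markers (of 8), 4 were higher in Bach2-/- cells at 24 h, where the log2 of their summed level was 3.60 to 5.14 against 1.55 to 2.02 in WT cells. Hbb-bt differed by 2.49 ± 0.42 (adjusted p = 0.00734). At 0 h none of these 5 markers passed the test, with a median difference of 1.86. Their summed level was already 5.095 to 6.684 in Bach2-/- cells against 3.14 to 4.165 in WT cells. Of 6 B-1 cell markers 3 were higher at each time, with summed levels of 4.79 to 5.28 against 3.48 to 3.81 at 0 h and 6.65 to 7.0 against 5.31 to 5.93 at 24 h. Among 6 marginal zone B cell markers, 3 were higher at 0 h, and 3 were higher and 2 lower at 24 h. At 24 h, 2 of 5 plasma cell, 2 of 13 T cell, 1 of 7 NK cell and 1 of 6 macrophage and monocyte markers were higher, 1 of 4 dendritic cell markers was higher and 1 lower, and 1 of 4 follicular B cell markers was lower; at 0 h, 1 plasma cell marker was higher. None of 8 measured neutrophil markers passed, with a median difference of 2.94, and none of the 9 general B cell markers, with a median difference of -0.49. The part of these cell types in the 3 listed differences was not tested.

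Whether the 24 h change itself differed between genotypes was tested as the difference of the 2 changes. Limma called 0 of the 38 genes (background, 0.317%), with 6 at an unadjusted p under 0.05 (7.18% of all genes). Syk was nearest, at -1.58 ± 0.30 (adjusted p = 0.0669), followed by Cblb at -1.16 ± 0.30 (adjusted p = 0.226) and Bank1 at -1.21 ± 0.39 (adjusted p = 0.416); Pik3cg went the other way at 1.04 ± 0.35 (adjusted p = 0.473). The dimmer Cblb probe also went the other way, at 0.34 ± 0.38 (adjusted p = 0.902) in the fit of single probes. With the array-number block 5 were called (background with the block, 4.21%; 1.69% higher and 2.52% lower). Their adjusted p were 0.00873 for Syk, 0.0134 for Cblb, 0.029 for Bank1, 0.0475 for Nfatc3 and 0.0246 for Pik3cg, which was the only positive one. On the spot-level 75th percentile Syk passed alone (adjusted p = 0.0451; background, 0.365%). The Bach2-/- change was the lower one for 27 of 38 genes, against 55.6% of all genes, with a median difference of -0.35 (all genes, -0.089). Without the 2 arrays set apart above it was lower for 20 of 38, against 53.2% of all genes, with a median of -0.052 (all genes, -0.041). Across the 38 genes the 2 genotypes' changes had a Pearson r of 0.87 and a Spearman rho of 0.83, against 0.76 and 0.68 across all genes; genes are not independent replicates, and each change shares its arrays over all genes.

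Because Bach2 binds DNA with small MAF proteins at MAF recognition elements, whose core resembles an AP-1 site, the listed genes' promoters were searched for TGANTCA in the 250 bases before each start, on both strands (the letters are their own reverse complement). RefSeq promoters on GRCm38.p6 were matched for 31 of the 38 genes, 45 promoters in all. The letters were found in 1 promoter, 1 of 31 genes (3.23%), against 7.82% of 27025 genes with a promoter in the same table and 7 of 60 other pathway genes (11.7%). The promoters of the 3 genes that were lower in Bach2-/- cells at 24 h are shown, with that of the gene that holds the letters, Vav3, at the last of its 3 starts (first base 114 bases before the start). The start lies just after the last base shown, and capitals mark TGANTCA.
Syk, first start, chr13:52583187-52583436, plus strand: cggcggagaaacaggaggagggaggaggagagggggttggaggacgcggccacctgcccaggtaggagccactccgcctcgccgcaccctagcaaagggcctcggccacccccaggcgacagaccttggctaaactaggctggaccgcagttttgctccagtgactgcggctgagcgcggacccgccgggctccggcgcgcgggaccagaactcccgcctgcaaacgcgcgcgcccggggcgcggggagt
Syk, second start, chr13:52596632-52596881, plus strand: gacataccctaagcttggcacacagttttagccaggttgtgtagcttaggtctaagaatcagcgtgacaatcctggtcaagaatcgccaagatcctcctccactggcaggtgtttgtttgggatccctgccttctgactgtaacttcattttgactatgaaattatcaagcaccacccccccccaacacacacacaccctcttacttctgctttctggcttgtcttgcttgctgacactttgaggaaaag
Bank1, chr3:136326067-136326316, minus strand: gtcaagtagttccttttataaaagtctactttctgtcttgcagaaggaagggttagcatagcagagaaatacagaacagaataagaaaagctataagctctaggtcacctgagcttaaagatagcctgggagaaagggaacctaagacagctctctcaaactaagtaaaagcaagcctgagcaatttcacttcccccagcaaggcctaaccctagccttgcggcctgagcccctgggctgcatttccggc
Cblb, chr16:52031299-52031548, plus strand: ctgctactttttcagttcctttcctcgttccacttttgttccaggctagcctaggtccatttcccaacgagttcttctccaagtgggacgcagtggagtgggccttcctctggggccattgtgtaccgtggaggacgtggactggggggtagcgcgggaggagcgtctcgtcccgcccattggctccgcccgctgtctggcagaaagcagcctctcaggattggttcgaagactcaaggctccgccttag
Vav3, last start, chr3:109573757-109574006, plus strand: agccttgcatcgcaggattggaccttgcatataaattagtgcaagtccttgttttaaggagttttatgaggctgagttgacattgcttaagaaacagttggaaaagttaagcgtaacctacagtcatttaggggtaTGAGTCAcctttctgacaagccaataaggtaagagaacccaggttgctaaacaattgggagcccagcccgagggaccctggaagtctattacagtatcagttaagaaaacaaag
Syk, Bank1 and Cblb hold no TGANTCA in these windows, which says nothing of other sites. The genotype difference of Vav3 was 0.29 ± 0.33 (adjusted p = 0.9998) before stimulation and -0.20 ± 0.33 (adjusted p = 0.873) after it.

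Of 82 other genes of the pathway, 76 were tested; Ighm, Ighd, Gab1, Gab2, Pik3cb and Rel were not, having no named probe that passed the filter. In WT cells 5 rose and 17 fell, and in Bach2-/- cells 6 rose and 17 fell (backgrounds of 20.6% and 13.3% as above). Rcan1, the calcineurin inhibitor that NFAT induces, rose most, by 3.73 ± 0.47 (adjusted p = 0.000292) and 4.05 ± 0.47 (adjusted p = 0.000139). The calcium channel Orai1 rose by 1.90 ± 0.31 (adjusted p = 0.00156) and 1.34 ± 0.31 (adjusted p = 0.0139), and the early response factor Egr1 by 1.77 ± 0.32 (adjusted p = 0.00278) and 2.24 ± 0.32 (adjusted p = 0.000613). Nfkbie, an NF-kB inhibitor, rose by 1.76 ± 0.25 (adjusted p = 0.000593) and 1.12 ± 0.25 (adjusted p = 0.0105). Tnfaip3, another brake on NF-kB, rose in WT cells by 1.42 ± 0.29 (adjusted p = 0.00574), and Cd5 and Sh3bp2 in Bach2-/- cells by 2.01 ± 0.35 (adjusted p = 0.00222) and 1.14 ± 0.28 (adjusted p = 0.019).

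Among the genes that fell was Cr2, complement receptor 2, at -3.99 ± 0.27 (adjusted p = 4.96e-06) in WT cells and -5.01 ± 0.27 (adjusted p = 6.23e-07) in Bach2-/- cells. Fos, an AP-1 subunit, gave -3.23 ± 0.85 (adjusted p = 0.0202) and -4.14 ± 0.85 (adjusted p = 0.00661). Cd22, an inhibitory co-receptor, gave -2.62 ± 0.26 (adjusted p = 5.95e-05) and -3.13 ± 0.26 (adjusted p = 1.29e-05); Pirb gave -2.48 ± 0.25 (adjusted p = 6.04e-05) and -2.78 ± 0.25 (adjusted p = 2.11e-05), and Itpr3 gave -2.03 ± 0.24 (adjusted p = 0.000182) and -2.84 ± 0.24 (adjusted p = 1.35e-05). Between genotypes, Ptpn22, a phosphatase of SRC-family kinases, was higher in Bach2-/- cells before stimulation by 2.24 ± 0.25 (adjusted p = 0.00174) and after it by 2.79 ± 0.25 (adjusted p = 9.42e-05). At 24 h Cd5 was higher too, 1.64 ± 0.35 (adjusted p = 0.0281), and Cr2, -2.06 ± 0.27 (adjusted p = 0.00125), and Itpr3, -1.02 ± 0.24 (adjusted p = 0.0438), were lower. None of the 76 passed the test of the difference between the changes in limma (background, 0.317%), with 3 at an unadjusted p under 0.05 (7.18% of all genes).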

How the data were processed

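Agilent 1-colour arrays of 12 samples were used, 3 in each of 4 groups (WT and Bach2-/- follicular B cells, 0 h and 24 h). The intensity values are the processed signals deposited by the authors, made with Agilent Feature Extraction 10.7.3.1, per the submitters' processing notes, which corrects each spot for background. The authors' deposited table holds log2 values; set against the scanner signals it matched log2 of the signal less the array's 75th percentile, centred on each probe's median (r between 0.99983 and 0.99994), and was used as an alternative. No per-sample column was left unmatched.

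Here, outlier spots were dropped, spots of a probe averaged, the signal divided by the array's 75th percentile over 55681 noncontrol probes, floored at 0.01 and put on the log2 scale. Probes well above background on all 3 arrays of 1 group or more were kept (30731), and a gene, named through the probe's RefSeq accession, was read from its probe with the highest mean. Group means of all 12 arrays were fitted with limma 3.58.1 in R 4.3.3 (lmFit and eBayes, two-sided, Benjamini-Hochberg over 22742 genes, threshold 0.05). The test was checked on simulated data with independent noise for each gene and array. That check does not cover arrays that deviate together, as these do. In all 5 comparisons were made. Levels on single arrays have no interval; the number of arrays limits the precision, and with 3 against 3 an exact permutation test of 1 gene cannot go below 0.1, so none was run.

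Same-numbered arrays deviated together in all 18 pairs between groups (r between 0.47 and 0.89), against 0.25 to 0.65 for other pairs on a slide and -0.81 to -0.42 across slides. The number may therefore mark paired samples, by this check and not by a statement in the labels. The 2 ranges within a slide overlap, and array 1 was alone of its group on its slide, so number and slide cannot be told apart there. The main fit leaves the number out, and the block is an alternative. Slides were scanned on different days. The 38 genes, the other pathway genes and the marker lists were chosen with earlier results of these data known. All 38 were named, with every array's value where a test was passed; of the other pathway genes at most 5 per comparison and direction, by size, were due to be named, and some are not reported here. Alternatives were another scaling, background correction, filter, floor, probe rule or fit, array weights, blocks, slide 1 alone and leaving out each array; the percentile over spots and the fit of single probes were added after seeing the data.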

Additional observations from a re-analysis of the deposited data

How the results depend on the processing

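Of 35 calls among the listed genes over the 5 comparisons, 15 were lost in 1 or more of the alternatives, and 50 of the other 155 results were gained in 1 or more. Listed genes called at 0 h between genotypes numbered 0, and 1 with quantile scaling, 1 with the floor of 0.1, 3 with the replicate block, 2 with the slide block and 5 with array weights. At 24 h they numbered 3, and 7 with the floor of 0.1, 1 with only the compared groups fitted, 19 with the replicate block, 19 with the slide block and 22 with array weights. The WT change called 13, and 20 with array weights. Array weights called 9.43%, 38.4%, 47.7% and 13.5% of all genes at 0 h, at 24 h, for the WT change and for the difference below. Over all genes the replicate block called 3.63% at 0 h, 18.6% at 24 h and 4.21% for the difference, the slide block 3.2%, 15.3% and 3.44%, and the floor 0.941%, 3.26% and 0.796%. Quantile scaling at 0 h called 0.959%, the fit of only the compared groups at 24 h 1.31% and the percentile over spots 0.365% for the difference. The difference between the changes called 0, and 2 with the floor of 0.1, 5 with the replicate block, 5 with the slide block, 10 with array weights and 1 with the percentile over spots. The replicate block ended none of the 35 calls and added 34; the array weights did not converge fully. Leaving out 1 array gave 2 to 4 calls at 24 h, 9 to 14 for the WT change and 16 to 19 for the Bach2-/- change. The shares of all genes were 1.57% to 2.87%, 12.7% to 23.4% and 9.23% to 13.9%. It gave 0 each time at 0 h (all genes, 0.273% to 0.827%) and for the difference (all genes, 0.15% to 0.321%). The mean of a gene's probes turned the WT change of Nfatc1 to 0.788 (adjusted p = 0.0115), by taking in its other probe. For the rest the cause was not tested. Genes near background, here Sos1, are limited by signal, and 3 arrays per group by number.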
